A study of Mus musculus with 10 samples.

Results

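The Khdc1 genes lie in a row on mouse chromosome 1 beside Gsta3, and this account follows 5 genes of that stretch in regulatory T (Treg) cells with and without Fntb. In the order of the RefSeq gene table they are Gsta3, Gm4956, Khdc1a, Khdc1c and Khdc1b. Each gene was represented by 1 probe set (a group of array probes summarised to a single value), so the cluster held 5 of the 22180 genes, and 5 of the 23521 probe sets, that the platform annotation pairs with a single symbol. The genes were chosen from the same comparison that is described here, after Khdc1a had been seen among the largest decreases. Their differences between the groups are therefore given as a description, without a test. The probe sets were tied to genes by Entrez identifier, because RefSeq lists Khdc1b as a synonym of Khdc1c and Khdc1c as a synonym of Khdc1b.

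The study profiled CD4+ YFP+ Treg cells sorted from spleen and pLN of chimeras, on 10 one-colour Affymetrix arrays. The Fntb KO group held 5 arrays of cells from Foxp3CreFntbfl/fl chimeras, in which Cre is under the control of Foxp3, the lineage factor of Treg cells. The WT group held 5 arrays of cells from WT chimeras. Both groups share the sort gate and the chimera setting, and the sources used here give no age, strain or host, nor whether WT cells carry the Cre. Fntb encodes the beta subunit of protein farnesyltransferase, which attaches a farnesyl lipid to proteins, and the series title is about the differentiation and upkeep of effector Treg cells. Values are RMA levels on a log2 scale, on which a step of 1 doubles the signal, and a negative difference means lower in Fntb KO.

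KHDC1 proteins belong to a family of small RNA-binding proteins that carry a KH domain, a fold that binds single-stranded nucleic acid. The family is best known from oocytes and early embryos, and mouse KHDC1A has been described at the endoplasmic reticulum, where it represses translation when overexpressed. Gsta3 encodes an alpha-class glutathione S-transferase, a cytosolic enzyme that couples glutathione to reactive electrophiles and in mice is known for detoxifying a fungal toxin. Gm4956 is annotated by RefSeq as a transcribed pseudogene, and no function is given for it here.

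The RefSeq promoter table (GRCm38.p6, 250 bases before to 50 bases after the gene start) held 2 of the 5 genes, Gsta3 and Khdc1b. Both windows are shown because they flank the cluster and because Gsta3 was lower in Fntb KO while Khdc1b was near the level of silent genes. They lie on the plus strand, at chr1:21240335-21240634 for Gsta3 and chr1:21383306-21383605 for Khdc1b, and capitals mark the motif matches named below.
Gsta3: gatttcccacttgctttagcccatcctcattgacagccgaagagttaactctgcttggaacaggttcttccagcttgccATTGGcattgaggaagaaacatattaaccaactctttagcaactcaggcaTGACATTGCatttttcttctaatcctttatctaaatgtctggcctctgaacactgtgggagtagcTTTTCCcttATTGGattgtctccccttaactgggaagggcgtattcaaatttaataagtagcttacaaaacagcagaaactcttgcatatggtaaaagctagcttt
Khdc1b: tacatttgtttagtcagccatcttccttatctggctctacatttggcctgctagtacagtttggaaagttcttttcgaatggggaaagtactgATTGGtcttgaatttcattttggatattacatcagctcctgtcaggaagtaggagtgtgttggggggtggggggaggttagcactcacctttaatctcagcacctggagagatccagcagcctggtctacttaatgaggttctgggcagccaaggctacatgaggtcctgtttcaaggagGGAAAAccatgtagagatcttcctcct
The windows were searched on both strands for 7 motifs. Gsta3 held 1 match to the antioxidant response element core TGACNNNGC, 121 to 113 bases before the gene start, and Khdc1b held 0. Of all 32851 promoter windows, 12.4% held that motif. Both windows held 1 match to the NFAT core GGAAAA, which 23.4% of windows held. The CCAAT box was found in both, with 2 matches in Gsta3 and 1 in Khdc1b, and in 37.4% of all windows. AP-1 (TGANTCA, in 7.81% of windows), STAT (TTCNNNGAA, 8.30%), CRE (TGACGTCA, 1.79%) and TATA box (TATAAA, 13.6%) letters were found in neither window, and no match overlapped another. A match is a run of letters and was not tested as a binding site.

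Array medians ran from 4.09 to 4.25, and the arrays Fntb KO 1, Fntb KO 2 and WT 2 had the lowest medians. These 3 arrays stood apart from the others on the first principal component, so the differences and correlations of the cluster's genes are given with and without them. Array numbers follow the order of the series, because the labels give no replicate numbers. In that order WT 1, Fntb KO 1, WT 2 and Fntb KO 2 alternate, and WT 3 to 5 and then Fntb KO 3 to 5 follow. The 3 low-median arrays are consecutive in it. Whether the order reflects separate handling was not tested. Fntb, the targeted gene, averaged 5.47 ± 0.12 in Fntb KO, against 6.12 ± 0.16 in WT (SD, 5 arrays each), a difference of -0.65 with an adjusted p of 0.00472 from limma. An exact permutation test over arrays, two-sided, gave p = 0.00794, which is the lowest value possible with groups of this size. The position of its probes against the deleted part was not examined. Foxp3 lay between 10.48 and 10.62 in Fntb KO and between 10.63 and 10.70 in WT. Olfactory receptor genes served as a guide to silent genes: their 1108 probe sets had a median level of 2.51 and a 95th percentile of 4.19.

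Khdc1a, Gm4956 and Gsta3, which follow each other among the measured genes, were lower on every Fntb KO array than on any WT array. Khdc1c and Khdc1b, at the other end of the cluster, lay among the silent genes in both groups and their groups overlapped. Among the 5 genes 3 were among the probe sets called at an adjusted p under 0.05, all lower, against 1.08% of all probe sets called in either direction, 0.774% called lower and 0.306% called higher. Groups that did not overlap, with Fntb KO below, were likewise found for 3 of the 5 and for 1.63% of all probe sets. The choice of the genes used this contrast, so nothing is read from these shares. Arrays of whole samples cannot tell fewer expressing cells from less RNA per cell.

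**Figure D1:**
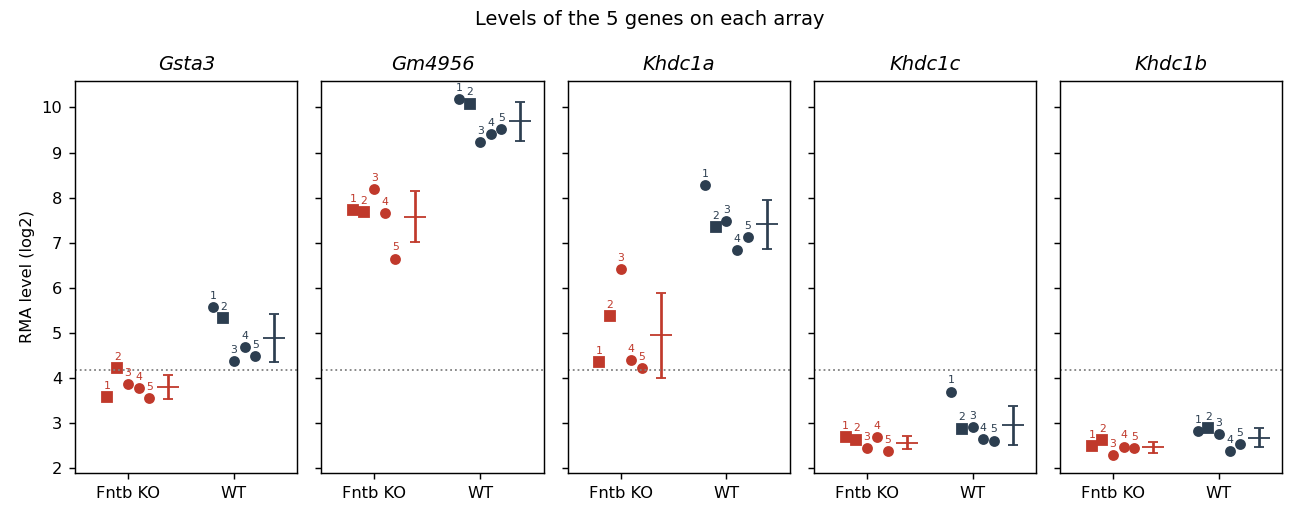
RMA level (log2, vertical axis) of each of the 5 genes on each array, Fntb KO left and WT right in each panel. Numbers count the arrays of a group in the order of the series, and squares are the 3 arrays with the lowest medians. Bars are mean ± SD (n = 5), and the dotted line is the 95th percentile of olfactory receptor genes (4.19). Gm4956, Khdc1a and Gsta3 do not overlap between groups, and Khdc1c and Khdc1b lie under the line throughout.

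Khdc1a was at 4.35, 5.37, 6.41, 4.40 and 4.22 in Fntb KO 1 to 5. In WT 1 to 5 it was at 8.29, 7.35, 7.48, 6.84 and 7.12. Fntb KO 3 was the highest knockout array and WT 4 the lowest WT array, and a gap of 0.43 separated them, while Fntb KO 1, 4 and 5 were close to the limit of silent genes. The means were 4.95 ± 0.94 in Fntb KO, against 7.42 ± 0.54 in WT (SD, 5 arrays each). The difference was -2.46 (SE 0.38), or 5.52-fold lower. Of all 23521 probe sets only 3 had a more negative difference. Inside the groups, too, Khdc1a varied more than most genes: its spread around the group means, a pooled SD of 0.77, was at percentile 99.9 of all probe sets.

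Gm4956 gave the highest signals of the cluster's probe sets, and these lay far above silent genes in both groups. It was at 7.73, 7.68, 8.20, 7.66 and 6.65 in Fntb KO 1 to 5, against 10.19, 10.09, 9.24, 9.42 and 9.52 in WT 1 to 5. The groups stood 1.04 apart at their nearest arrays, Fntb KO 3 and WT 3. The means were 7.58 ± 0.57 in Fntb KO, against 9.69 ± 0.42 in WT (SD, 5 arrays each), which is -2.11 (SE 0.25) on the log2 scale, or 4.31-fold lower. In the ranking of all differences from the most negative, Gm4956 was number 10. Pseudogenes can share sequence with their parent gene or with other copies, and which transcripts bind this probe set was not examined.

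Gsta3, the detoxifying enzyme at the near end of the cluster, had a smaller difference. It was at 3.57, 4.22, 3.87, 3.79 and 3.57 in Fntb KO 1 to 5, of which only Fntb KO 2 was above 4.19. In WT 1 to 5 it was at 5.58, 5.33, 4.37, 4.69 and 4.48. WT 1 and WT 2 were clearly higher than the other WT arrays, and WT 3 lay 0.16 above Fntb KO 2. The means were 3.80 ± 0.27 in Fntb KO, against 4.89 ± 0.53 in WT (SD, 5 arrays each), which makes a difference of -1.09 (SE 0.22), 2.13-fold lower, number 47 in the ranking. Because the Fntb KO level was near that of silent genes, this fold can understate the change.

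The paralogs of Khdc1a were dim. Khdc1c was at 2.70, 2.64, 2.46, 2.69 and 2.38 in Fntb KO 1 to 5, against 3.70, 2.89, 2.91, 2.64 and 2.62 in WT 1 to 5. A single array, WT 1, stood above the rest, and it was also the array with the highest Khdc1a, Gm4956 and Gsta3. The means were 2.57 ± 0.145 in Fntb KO, against 2.95 ± 0.44 in WT (SD, 5 arrays each), a difference of -0.38 (SE 0.17), which was -0.19 without WT 1. Khdc1b was at 2.50, 2.64, 2.30, 2.48 and 2.45 in Fntb KO 1 to 5, against 2.82, 2.89, 2.77, 2.39 and 2.54 in WT 1 to 5. Its means were 2.47 ± 0.12 in Fntb KO, against 2.68 ± 0.21 in WT (SD, 5 arrays each), a difference of -0.21 (SE 0.11). Both lie below 4.19 on every array, where a change in transcript could pass unseen. The Khdc1 genes are paralogs, and how far probes of 1 bind transcripts of another was not tested.

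The differences were of similar size without the 3 low-median arrays. Among the other 7 arrays, Khdc1a averaged 5.01 in 3 Fntb KO arrays and 7.43 in 4 WT arrays, a difference of -2.42. Among the 3 low-median arrays the difference was -2.49, with 2 Fntb KO arrays and 1 WT array. For Gm4956 it was -2.09 among the 7 and -2.38 among the 3, and for Gsta3 -1.04 and -1.43. Without the 3 arrays only Gm4956 was still called, and Khdc1a and Gsta3 were not, at these nearly equal differences and with fewer arrays. Gsta3 was also not called without Fntb KO 1, Fntb KO 3, Fntb KO 4, Fntb KO 5, WT 2 or WT 4, at differences of -1.14 to -0.98. These calls come from the contrast that chose the genes, so nothing is read from them.

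The genes on either side of the cluster were not chosen by their values, and they were tested in the same fit. Of the 15 RefSeq genes next to Gsta3, 8 had a probe set of their own, and of the 15 next to Khdc1b 6 did, with 7 probe sets. None of these 15 probe sets passed over all probe sets in limma, where 1.08% were called. At an unadjusted p under 0.05, 5 of the 15 differed, against 9.33% of all probe sets. These were Mcm3, Tram2, both probe sets of Kcnq5, and Mir30a. Mir30a, named after its values were seen, was higher in Fntb KO (2.32, against 2.09 in WT), at the level of silent genes. Over all 15 neighbouring probe sets the median difference was -0.10 on the Gsta3 side and 0.11 on the Khdc1b side, against 0.0078 over all probe sets. The genes with the largest differences were both on the Gsta3 side. Mcm3, a subunit of the replicative helicase, averaged 5.98 ± 0.30 in Fntb KO, against 6.48 ± 0.14 in WT (SD, 5 arrays each), a difference of -0.49 with an adjusted p of 0.14. Tram2, which takes part in collagen synthesis at the endoplasmic reticulum, averaged 6.28 ± 0.12 in Fntb KO, against 6.71 ± 0.19 in WT (SD, 5 arrays each), a difference of -0.43 with an adjusted p of 0.0772. The groups of Tram2 did not overlap, and it passed after repeated quantile normalization (adjusted p = 0.0487), as Mcm3 did without Fntb KO 2 (adjusted p = 0.0423).

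The neighbours that follow are named after their values were seen. Tmem14a, the nearest measured gene beside Gsta3, differed by -0.17 (adjusted p = 0.68). Kcnq5, a potassium channel gene beside Khdc1b, had 2 probe sets that differed by -0.29 and -0.36 (adjusted p = 0.467 and 0.346). Il17a and Il17f, the helper T cell cytokines farther along on the Gsta3 side, differed by -0.16 and 0.05 at levels below 4.19 in both groups (adjusted p = 0.669 and 0.964). The 5 further RefSeq genes that lie between the members, among them Gm21909 and Gm33147, had no probe set of their own and could not be analysed here.

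**Figure D2:**
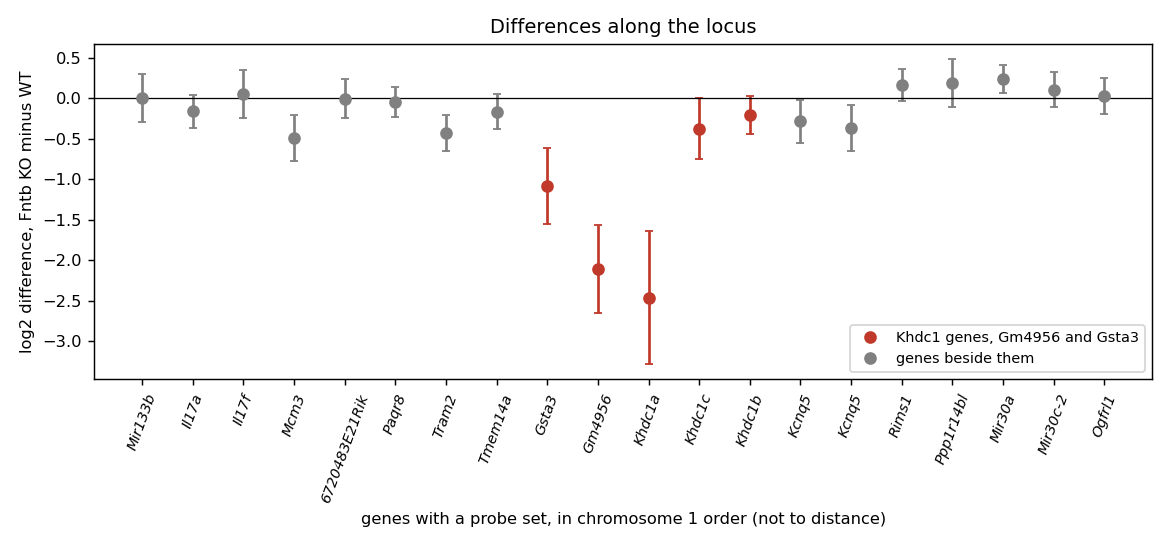
Log2 difference, Fntb KO minus WT (vertical axis), of each probe set of the chromosome 1 window, in gene order and not to distance (horizontal axis). Points are differences of group means over 5 arrays each, bars 95% intervals from the fit, red the 5 genes of the cluster and grey the 15 probe sets beside them. Gsta3, Gm4956 and Khdc1a lie between -2.46 and -1.09, and the grey points between -0.49 and 0.23.

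Over the 10 arrays of both groups together, deviations of the 5 genes were positively correlated in all 10 pairs, with Pearson's r of 0.12 to 0.68. Several values rested on single arrays, and over the Fntb KO arrays alone some pairs with the dim genes were negative, as given below. Correlations were taken over deviations from the own group's mean on 10 arrays, which removes the difference between the groups, and they are a description, since all values share the same arrays and normalization. Pearson's r was 0.68 for Gm4956 with Khdc1a (Spearman's rho 0.64), 0.68 for Gsta3 with Gm4956 (rho 0.77) and 0.53 for Gsta3 with Khdc1a (rho 0.52). For comparison, 21969 pairs of genes that follow each other on a chromosome had a median r of 0.04 and a 95th percentile of 0.68. Those pairs were not matched for spread. The pooled SD inside the groups was at percentiles 98.0, 99.0 and 99.9 for Gsta3, Gm4956 and Khdc1a. Without the 2 arrays farthest from the median of the first gene of each pair, r was 0.78, 0.53 and 0.45. Without the 2 farthest for the second gene, an alternative chosen after seeing the data, it was 0.36, 0.66 and 0.46, so the value for Gm4956 with Khdc1a rests in part on Fntb KO 3 and WT 1. Without the 3 low-median arrays it was 0.81, 0.70 and 0.56. Some pairs with the dim genes reached similar values. For Gsta3 with Khdc1c r was 0.67, with 0.20 when WT 1 and WT 5 were left out and 0.87 without the 3 low-median arrays. It was 0.59 for Khdc1c with Khdc1b, 0.54 for Gsta3 with Khdc1b, and lowest, at 0.12, for Khdc1a with Khdc1b.

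The array medians were set beside the 3 genes in the same way. Their deviations had r values of -0.08 with Khdc1a, -0.41 with Gm4956 and -0.42 with Gsta3 over all 10 arrays. Without the 3 low-median arrays the values were -0.89 for Khdc1a, -0.89 for Gm4956 and -0.48 for Gsta3. The part of the array medians in the correlations between the genes was not tested.

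Single arrays stood out in these deviations. Fntb KO 3 was above its group's mean by 1.46 for Khdc1a and by 0.62 for Gm4956, the highest of its group for both, but by only 0.07 for Gsta3. WT 1 was the highest WT array for Khdc1a (by 0.87), Gm4956 (by 0.50) and Gsta3 (by 0.69). Inside a group a correlation rests on 5 arrays, too few to test. Gsta3 with Gm4956 gave an r of 0.44 over the 5 Fntb KO arrays and 0.97 over the 5 WT arrays, and Gm4956 with Khdc1a gave 0.70 and 0.64. For both Gsta3 and Gm4956, WT 1 and WT 2 were above their group's mean and WT 3 to 5 below it. Khdc1a with Khdc1c gave -0.26 over Fntb KO and 0.97 over WT, and over all 10 arrays it was 0.39, and 0.24 without Fntb KO 3 and WT 1. Khdc1a with Khdc1b gave -0.42 over Fntb KO and 0.71 over WT, and Gm4956 with Khdc1b gave -0.24 and 0.61. The remaining pairs were positive in both groups.

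**Figure D3:**
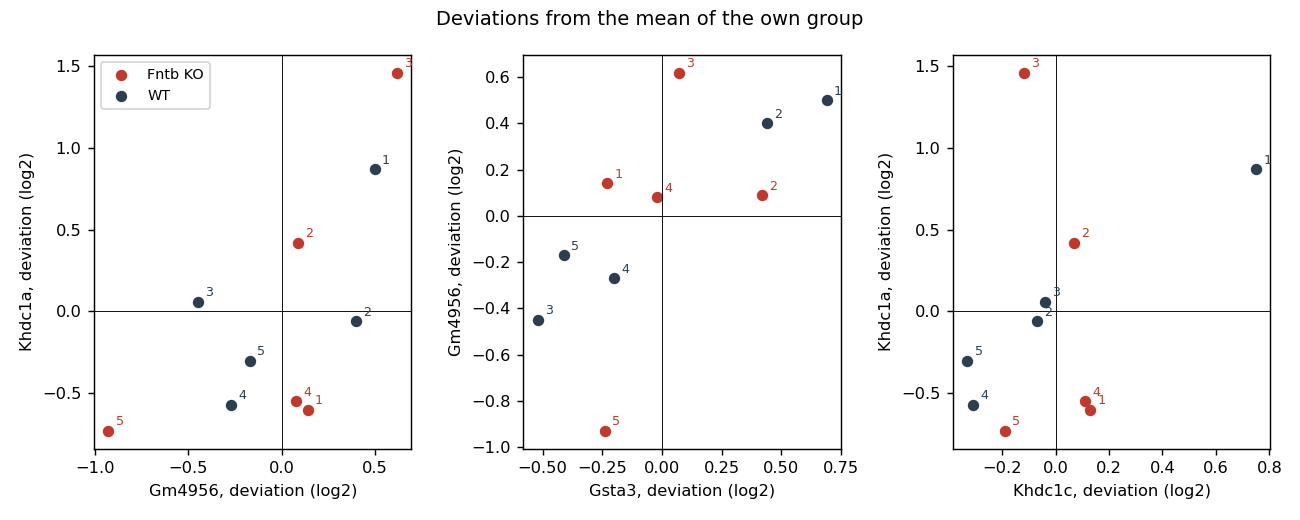
Deviation of each array from the mean of its own group (log2, both axes) for 3 pairs of genes. Each point is 1 array with its number in the order of the series, red for Fntb KO and dark for WT. Fntb KO 3 and WT 1 lie at the upper end for Khdc1a and Gm4956, and in the right panel WT 1 alone is high for Khdc1c.

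The genes most like Khdc1a in these deviations came from elsewhere. Among 11087 other genes at or above the median level, the highest r belonged to Cox7a2l, which encodes a protein of respiratory supercomplexes, at 0.967. It was at 8.66, 8.94, 9.24, 8.66 and 8.71 in Fntb KO 1 to 5, against 8.74, 8.63, 8.61, 8.44 and 8.59 in WT 1 to 5. Like Khdc1a it was highest in Fntb KO 3 and WT 1 of their groups. Its group means, however, differed by 0.24 in the opposite direction, and it was not called. The next were Gm15706 (0.913), Natd1 (0.908), Prorsd1 (0.903) and Mir697 (0.901), with group differences of -0.16 to 0.19, and none of these was called. Each of them was also highest in Fntb KO 3 and WT 1 of the groups. As the highest of 11087 genes these r values are high by selection, and r without those arrays was not taken. Gm4956 ranked 442 of 22179 genes in this likeness, Gsta3 1504, Khdc1c 3108 and Khdc1b 8528.

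Other genes of the KHDC1 family and of the maternal protein complex of the oocyte showed no called change. All 8 listed genes had a probe set, with differences between -0.18 and 0.23 and a median of -0.02. Of these 0 passed, against 1.08% of all probe sets. At an unadjusted p under 0.05, 1 of them differed, against 9.33% of all probe sets. At these shares nothing about the list is read from the 0. The largest differences were in Ooep at 0.23 (adjusted p = 0.443) and Khdc3 at -0.18 (adjusted p = 0.679), relatives of the Khdc1 genes that belong to that complex. Their levels averaged 3.89 ± 0.12 in Fntb KO, against 3.66 ± 0.14 in WT for Ooep, and 5.24 ± 0.18 in Fntb KO, against 5.42 ± 0.16 in WT for Khdc3 (SD, 5 arrays each).

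Oocyte and early embryo genes were mostly at the level of silent genes. Of 22 measured, 20 lay below 4.19 in both groups, and the median difference was 0.07. Of the 22, 1 rose and 0 fell, against 0.306% called higher and 0.774% called lower of all probe sets. The riser was Sycp1, a structural protein of paired meiotic chromosomes, which averaged 4.69 ± 0.75 in Fntb KO, against 2.57 ± 0.20 in WT (SD, 5 arrays each), a difference of 2.12 with an adjusted p of 0.00217. Of 39 probe sets for other genes with a KH domain, 0 passed, against 1.08% of all probe sets. At an unadjusted p under 0.05, 3 of the 39 differed, against 9.33% of all probe sets. The differences of the 39 ran from -0.23 to 0.38, with a median of -0.02. The largest were in Tdrkh (0.38, adjusted p = 0.449) and Nova1 (0.29, adjusted p = 0.327).

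The list of glutathione S-transferases set beside Gsta3 also holds Mgst1, Mgst2, Mgst3 and Ptges. Of its 27 entries 23 had a probe set, of which 0 passed, against 1.08% of all probe sets. At an unadjusted p under 0.05, 3 of the 23 differed, against 9.33% of all probe sets. At these shares nothing about the enzyme family is read from the 0. The differences ran from -0.31 to 0.30, and the median was 0.05. Gsta4, the other alpha-class gene with a probe set of its own, averaged 8.18 ± 0.21 in Fntb KO, against 8.48 ± 0.29 in WT (SD, 5 arrays each), a difference of -0.31 with an adjusted p of 0.527. Gsto2, of the omega class, differed by 0.30 (adjusted p = 0.427). That these genes differ from Gsta3 in their response was not tested.

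Among glutathione synthesis genes and targets of NRF2, the factor that binds antioxidant response elements, 1 of 21 probe sets fell and 0 rose. Of all probe sets 0.774% were called lower and 0.306% higher. The median difference of the list was 0.01. At an unadjusted p under 0.05, 4 of the 21 differed, against 9.33% of all probe sets. The gene that fell was Gsr, glutathione reductase, which regenerates reduced glutathione. It averaged 5.24 ± 0.28 in Fntb KO, against 6.14 ± 0.15 in WT (SD, 5 arrays each), which is lower by 1.86-fold (adjusted p = 0.00383). Hmox1, heme oxygenase, named after its value was seen, differed by -0.65 (adjusted p = 0.21), and passed without Fntb KO 1 (-0.83, adjusted p = 0.0257).

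**Figure D4:**
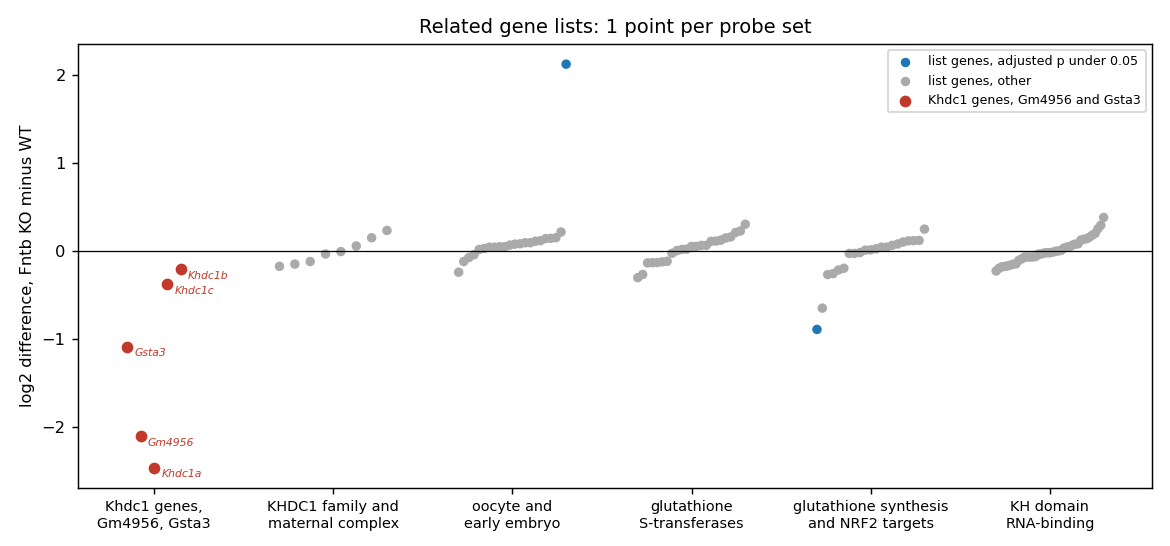
Log2 difference, Fntb KO minus WT (vertical axis), for the 5 genes of the cluster (red) and for the probe sets of 5 related gene lists (1 point each, sorted within a list). Blue points passed at an adjusted p under 0.05. Sycp1 (2.12) and Gsr (-0.90) are the blue points, and the other grey points lie between -0.65 and 0.38.

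The label of the sorted cells was checked against markers. The 8 measured T cell markers averaged 10.22 to 10.43 on the Fntb KO arrays and 10.35 to 10.53 on the WT arrays, and none passed (median difference -0.12). The 7 markers of oocytes, in which the Khdc1 family is best known, lay below 4.19 in both groups, at 3.20 to 3.34 on the Fntb KO arrays and 3.22 to 3.34 on the WT arrays. Over 10 marker lists of other cell types, 1 of 57 probe sets fell and 0 rose, against 0.774% and 0.306% of all probe sets. The one that fell was Nkg7, a cytotoxic granule gene (-0.79, adjusted p = 0.0133). Its list's defining genes Cd8a, Ncr1 and Klrb1c were below 4.19 in both groups. Cd8b1 of the same list, a chain of the CD8 coreceptor, averaged 7.01 in Fntb KO and 6.75 in WT, a difference that did not pass (adjusted p = 0.825). Gzmb, a cytotoxic protease of that list named here after its values were seen, averaged 3.29 ± 0.25 in Fntb KO, against 4.12 ± 0.57 in WT (SD, 5 arrays each). Its difference of -0.83 did not pass (adjusted p = 0.143). The CD8 T or NK cell list averaged 4.32 to 4.60 on the Fntb KO arrays and 4.49 to 4.86 on the WT arrays, and the neutrophil list 3.46 to 4.38 on the Fntb KO arrays and 3.49 to 3.74 on the WT arrays. In the neutrophil list S100a8 and S100a9, named after their values were seen, had the largest differences. S100a8 averaged 4.80 ± 1.03 in Fntb KO, against 3.75 ± 0.25 in WT, and S100a9 5.22 ± 0.82, against 4.56 ± 0.32 (SD, 5 arrays each). Neither passed (adjusted p = 0.325 and 0.543), and the other genes of the list differed by -0.11 to 0.11. The part of such cells in the levels of the Khdc1 cluster was not tested.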

How the data were processed

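Per the labels' protocols, RNA of the sorted cells was turned into biotinylated cDNA with NuGEN kits. The values deposited by the authors are log2 levels per probe set, made by RMA in Affymetrix Expression Console 1.1, per the submitters' processing notes. RMA corrects background, makes the arrays' distributions alike and summarises probes, so that differences at low levels are compressed. The deposited table and the series matrix were identical (largest difference 0).

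Of 41345 probe sets, GEO's platform annotation gave 23521 a single symbol. They were used without a filter on dim values. Another 1820 with several symbols and 16004 unnamed here were left out. Entrez identifiers matched RefSeq (GRCm38.p6) for 23328, which supplied names and gene order only, since the files name no build. The groups were compared by limma 3.58.1 under R 4.3.3 (lmFit, eBayes, no covariate), with Benjamini-Hochberg adjustment over all 23521. The fit was tested on simulated data.

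The genes and lists were chosen with earlier results of these data known. Named are every gene of the cluster, Fntb, up to 4 members past the threshold from each list and from the neighbours (otherwise the 2 largest differences), and the 5 genes most like Khdc1a. Of the marker lists only the T cell, oocyte, CD8 T or NK cell and neutrophil lists are printed singly, and of the effector list only its mean. Whether the arrays of a group stem from different animals is not in the labels, so the spread behind the p-values may be technical. The number of arrays limits the precision.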

Additional observations from a re-analysis of the deposited data

Results flagged for a closer look

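Among 16 sets of 5 arrays (the 5 genes of the cluster, Fntb, Mcm3 and Tram2 in each group), 1 array lay far from the others of its group. Khdc1c was 3.70 on WT 1, and the next WT array was at 2.91, so the gap took 0.73 of the group's range, above the critical value of 0.71 for 5 arrays. Chance alone marks about 1 in 20 such sets.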

How the results depend on the processing

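The log2 differences of Gsta3, Gm4956 and Khdc1a kept their direction in 19 alternatives each and ran from -1.22 to -0.92, from -2.26 to -1.87 and from -2.83 to -2.25. Khdc1c (-0.46 to -0.19) and Khdc1b (-0.28 to -0.16) kept theirs in 18, being absent among probe sets at or above the median level. Several alternatives change only the test or the probe sets tested and repeat the same differences. For Gsta3, Gm4956 and Khdc1a, whose groups do not overlap, leaving out arrays cannot change the direction. The genes were also chosen from this contrast, so the kept directions are no support for the differences. Fntb passed in 19 of 19. The total of 254 called probe sets was 165 over every probe set of the table, where Gsta3 was not called, 158 without the 3 low-median arrays, 397 with a block for them, and 124 to 270 without each array in turn; the lowest counts were without WT 3 (124), WT 4 (139) and WT 5 (150). Of the 5 genes of the cluster 3 were called, 1 without the 3 low-median arrays, and 2 to 3 without each array. Among the neighbours 0 were called, but 1 after repeated quantile normalization (Tram2, adjusted p = 0.0487), 2 with the block (Mcm3, 0.0222, and Tram2, 0.0331), and 0 to 1 without each array (Mcm3 without Fntb KO 2, 0.0423). Of glutathione and NRF2 target genes 1 to 2 were called without each array. Among oocyte genes 0 were called at or above the median level, where Sycp1 was not among the probe sets tested. The correlations of deviations changed to 0.78 and 0.81 for Gm4956 with Khdc1a, 0.53 and 0.70 for Gsta3 with Gm4956, and 0.45 and 0.56 for Gsta3 with Khdc1a, without the 2 farthest and without the 3 low-median arrays, and to 0.36, 0.66 and 0.46 without the 2 farthest for the second gene, chosen after seeing the data. The causes were not tested. No paired analysis was possible because the labels give no replicate numbers. The array numbers used here only follow the order of the series. Signals below about 4.19 limit what can be said of Khdc1c, Khdc1b and, in Fntb KO, Gsta3.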

Other observations

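The levels of the cluster were also set beside effector Treg genes, a list chosen with earlier results of these data known. The mean level of the 19 probe sets of its 18 genes was 5.37, 5.53, 5.44, 5.29 and 5.37 in Fntb KO 1 to 5, against 6.45, 7.11, 7.39, 6.77 and 6.83 in WT 1 to 5. WT 1 had the lowest effector mean of the WT arrays, although it had the highest Khdc1a (8.29), Gm4956 (10.19) and Gsta3 (5.58). Correlations of the deviations with the effector mean, given as a description, had opposite signs in the groups. For Khdc1a r was 0.63 over the 5 Fntb KO arrays and -0.37 over the 5 WT arrays, for Gm4956 0.25 in Fntb KO and -0.52 in WT, and for Gsta3 0.75 in Fntb KO and -0.55 in WT. Over all 10 arrays r was -0.04 for Khdc1a, -0.25 for Gm4956 and -0.39 for Gsta3. Without the 3 low-median arrays it was -0.08, -0.42 and -0.78, in the same order. Without WT 3 and WT 1, the 2 arrays farthest for the effector mean, it was 0.50, 0.47 and 0.85. Without the 2 arrays farthest for each gene it was 0.69, 0 and -0.19. No common relation is read from values that change sign between the groups and with the arrays left out.

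Correlations with the level of Fntb had opposite signs as well. For Khdc1a r was -0.72 over Fntb KO and 0.58 over WT, for Gm4956 -0.68 in Fntb KO and 0.47 in WT, and for Gsta3 -0.86 in Fntb KO and 0.45 in WT. Over all 10 arrays r was -0.14 for Khdc1a, -0.10 for Gm4956 and 0.09 for Gsta3. Without the 3 low-median arrays it was -0.10, 0.08 and 0.62, in the same order. Without the 2 arrays farthest for each gene it was -0.84, 0.04 and -0.33. Without WT 1 and Fntb KO 5, the 2 farthest for Fntb, it was -0.48, -0.08 and -0.44. Fntb KO 3, the knockout array with the highest Khdc1a, was at 5.41 for Fntb, inside the range of 5.31 to 5.62 of its group.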
